A study of Mus musculus with 8 samples.

Results

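The guanylate-binding proteins are large GTPases that cells make in response to interferon. The 9 genes described here, Gbp2, Gbp2b, Gbp3, Gbp4, Gbp5, Gbp6, Gbp7, Gbp8 and Gbp9, were taken by name, through probes whose accession in the array annotation is a RefSeq transcript of the gene. They make up 9 of the 32539 genes and 11 of the 39429 probes on the array. All 9 passed the filter on dim probes, Gbp2b and Gbp6 have 2 probes each, and the brighter was used.

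Interferon gamma acts through its receptor and the kinases Jak1 and Jak2, and Irf1 is among the factors that then switch on Gbp genes. Type I interferons act on many of the same genes. Inside the macrophage the proteins gather on vacuoles that hold bacteria or parasites and on the bacteria themselves, work beside the immunity-related GTPases, and help caspase-11 and the inflammasomes sense what is released.

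Mouse peritoneal macrophages were cultured in medium with 20% fetal bovine serum with LECT2 (leukocyte cell-derived chemotaxin 2, a protein that the liver secretes) at 0.5 µg/ml (low dose) or 5 µg/ml (high dose), or without it. RNA was taken after 3.5 h (3 h in the channel labels) or 48 h, and each of 8 arrays of 2 colours carried a LECT2 sample in Cy3 and an untreated control of the same time in Cy5. There were 4 groups, 1 for each dose at each time, with 2 arrays apiece. The 2 arrays stem from 2 experiments made independently on different mice. Strain, age and sex of the mice, the purity of the cells and the source of LECT2 are not given in the sources used here. No dyes were swapped, so a dye effect of a single probe and an effect of LECT2 cannot be told apart.

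By the dyes, the value table gives control over LECT2 although the titles read the other way. Its sign is turned here, so a log2 value above 0 means more transcript with LECT2. Of the 8 value columns, 7 followed a scanner file recorded under another sample more closely than their own. By the files they follow, 1 slide held all 3.5 h arrays and the other all 48 h arrays, so slide and time cannot be told apart. Ratios of the 2 replicates correlated over genes at r = 0.352 to 0.721. All 7 tested macrophage markers were above background in both channels on all 8 arrays, and so was the T cell marker Cd3e.

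The genes lie in 2 clusters, on chromosome 3 in the order Gbp5, Gbp7, Gbp3, Gbp2b, Gbp2 and on chromosome 5 in the order Gbp8, Gbp9, Gbp4, Gbp6, with Gbp10 between Gbp4 and Gbp6. The RefSeq promoter table (GRCm38.p6) gave upstream sequence for the 5 genes on chromosome 3. The 250 bases before their start sites are shown because all 5 genes were called at the high dose at both times and all 5 hold a match to the core of the interferon-stimulated response element, a site read by Irf factors. Each is on the plus strand and printed 5′ to 3′, with matches to any of 3 motifs in capitals.
Gbp5: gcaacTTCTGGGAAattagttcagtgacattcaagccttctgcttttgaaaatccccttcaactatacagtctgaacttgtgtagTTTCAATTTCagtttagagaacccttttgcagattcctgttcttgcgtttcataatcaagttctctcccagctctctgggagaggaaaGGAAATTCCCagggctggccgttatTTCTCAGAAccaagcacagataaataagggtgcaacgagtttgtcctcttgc
Gbp7: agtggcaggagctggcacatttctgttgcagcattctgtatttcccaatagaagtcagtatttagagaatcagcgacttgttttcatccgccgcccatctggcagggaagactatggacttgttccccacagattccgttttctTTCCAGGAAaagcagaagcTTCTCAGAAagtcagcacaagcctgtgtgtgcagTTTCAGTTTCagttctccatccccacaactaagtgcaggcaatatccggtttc
Gbp3: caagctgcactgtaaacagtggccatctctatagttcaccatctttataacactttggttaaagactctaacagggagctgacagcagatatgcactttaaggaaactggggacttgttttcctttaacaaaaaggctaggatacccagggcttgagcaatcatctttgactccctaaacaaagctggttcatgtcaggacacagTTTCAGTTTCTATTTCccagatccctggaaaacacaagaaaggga
Gbp2b: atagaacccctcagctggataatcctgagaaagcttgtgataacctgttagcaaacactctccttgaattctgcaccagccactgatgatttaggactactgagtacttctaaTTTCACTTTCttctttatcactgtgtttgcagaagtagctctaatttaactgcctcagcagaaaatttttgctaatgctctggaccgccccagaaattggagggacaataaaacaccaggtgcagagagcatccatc
Gbp2: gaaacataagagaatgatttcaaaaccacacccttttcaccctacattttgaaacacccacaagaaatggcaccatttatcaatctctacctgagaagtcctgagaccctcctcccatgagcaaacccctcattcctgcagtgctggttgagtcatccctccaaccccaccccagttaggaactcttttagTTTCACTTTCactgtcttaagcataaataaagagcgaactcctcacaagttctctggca
The windows are chr3:142496684-142496933 for Gbp5, chr3:142530086-142530335 for Gbp7, chr3:142559794-142560043 for Gbp3, chr3:142594597-142594846 for Gbp2b and chr3:142620413-142620662 for Gbp2.

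The response-element core was searched as TTTC, any 2 bases and TTTC again, or as the reverse complement, GAAA, any 2 bases and GAAA. It was found in 978 of 32851 upstream windows of the same length in the table (2.98%). It lay 165 to 156 bases before the start of Gbp5, 53 to 44 before Gbp7, 137 to 128 before Gbp2b and 59 to 50 before Gbp2. Gbp3 held a pair of overlapping matches, at 45 to 36 and 39 to 30 bases before its start, and a second start listed for Gbp3 had none. Gbp2 and Gbp2b share the same letters at the match (TTTCACTTTC), as do Gbp7 and the first match of Gbp3 (TTTCAGTTTC).

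The gamma-activated site, an element of many genes that answer interferon gamma, was searched as TTCNNNGAA, which reads the same on both strands. It was found in 7.02% of windows, and in Gbp5 (245 to 237 and 52 to 44 bases before the start) and Gbp7 (106 to 98 and 87 to 79). The NF-kB consensus, on both strands, was found in 3.9% of windows and among these genes in Gbp5, as GGAAATTCCC at 77 to 68 bases before the start. A response-element core and an NF-kB consensus together were in 40 of the 32851 windows (0.12%). These matches are descriptions of letters, and binding was not measured.

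Values above 0 made up 70 of the 72 array values of the 9 genes. The exceptions were both of Gbp8, and the other 8 genes were above 0 on all 8 arrays. The scanner files, read with loess, gave 70 of 72 values above 0 as well. Limma's test against 0 called a gene at an adjusted p under 0.05 over all 26148 genes tested. At 3.5 h 3 of 9 members rose at the low dose (Gbp2, Gbp3 and Gbp5) and 5 of 9 at the high dose (Gbp2, Gbp2b, Gbp3, Gbp5 and Gbp7), where 2.75% and 10.2% of all genes rose. At 48 h 4 of 9 rose at the low dose (Gbp2, Gbp2b, Gbp3 and Gbp5) and 9 of 9 at the high dose, where 0.153% and 4.31% of all genes rose. No member fell, while 2.15%, 11.7%, 0.0191% and 6.91% of all genes did in that order. With the scanner files as recorded under each sample 0, 0, 1 and 0 members were called in the same order. Calls also fell without single arrays: to 1 at the low dose at 3.5 h without its replicate 1, to 1 at the high dose at 3.5 h without its replicate 1, to 0 at the low dose at 48 h without either replicate, and to 1 or 3 at the high dose at 48 h without replicate 1 or 2. The median member stood at log2 1.69, 1.95, 3.10 and 4.69 in that order, and the median of all genes between -0.03 and 0.02.

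**Figure D1:**
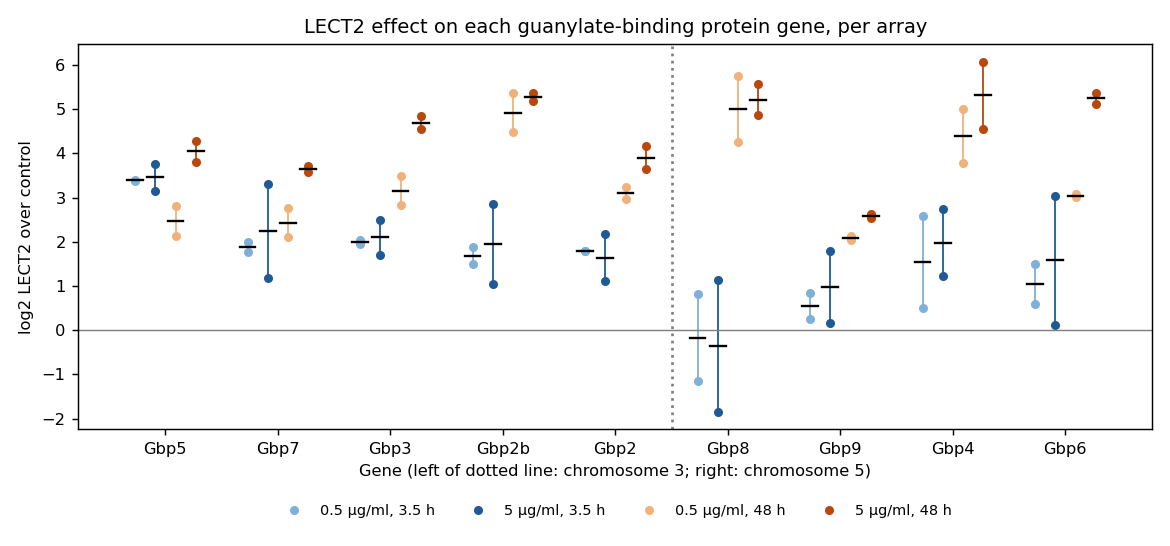
Log2 ratio of LECT2 over control (vertical axis) of the 9 genes in chromosomal order. Each point is 1 array, a line joins the 2 arrays of a group, and a black bar is their mean. Values above 0 mean more transcript with LECT2. The chromosome 3 genes on the left are above 0 on every array, and Gbp8 goes from both sides of 0 at 3.5 h to between 4.25 and 5.75 at 48 h.

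Gbp5, which promotes assembly of the NLRP3 inflammasome, had the largest early response of the family. At 3.5 h it measured log2 3.41 and 3.37 on the low-dose arrays and 3.75 and 3.16 on the high-dose arrays (replicates 1 and 2 of each). At 48 h the values were 2.80 and 2.13 at the low dose and 4.28 and 3.81 at the high dose. The low-dose arrays were therefore lower at 48 h than at 3.5 h, and the high-dose arrays higher at 48 h. The low-dose mean was 10.5-fold at 3.5 h and 5.53-fold at 48 h, and the high-dose mean 16.5-fold at 48 h. At 3.5 h the high-dose mean in log2 was 3.45, close to 3.39 at the low dose. Limma's SE was 0.27 on the log2 scale, with adjusted p of 0.00234 and 0.000672 at 3.5 h (low and high dose) and 0.0245 and 0.00155 at 48 h. From scanner signals with loess the 48 h low-dose value was 1.22 and no longer called (adjusted p = 0.150), and the 48 h high-dose value was 3.39, against 4.05 from the table.

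Gbp7, which has been tied to the oxidative killing of bacteria, gave log2 1.99 and 1.77 at the low dose and 3.30 and 1.19 at the high dose at 3.5 h. Its 48 h values were 2.77 and 2.10 at the low dose and 3.71 and 3.57 at the high dose. The high-dose replicates at 3.5 h were far apart and reached past the low-dose values on both sides. Gbp7 rose 4.74-fold at the high dose at 3.5 h (log2 2.24 ± 0.45 SE, adjusted p = 0.0129) and 12.5-fold at the high dose at 48 h (3.64 ± 0.45, adjusted p = 0.0064). At the low dose its means of 1.88 and 2.43 were not called (adjusted p = 0.058 and 0.109).

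Gbp3, a neighbour of Gbp7 on chromosome 3, was called in every group. It measured log2 1.96 and 2.03 at the low dose and 2.49 and 1.71 at the high dose at 3.5 h. At 48 h it measured 3.48 and 2.82 at the low dose and 4.84 and 4.54 at the high dose. All 4 late arrays exceeded all 4 early ones, and at 48 h both high-dose arrays exceeded both low-dose arrays. The means corresponded to 3.98-fold, 4.28-fold, 8.89-fold and 25.8-fold (low and high dose at 3.5 h, then at 48 h; SE 0.27 on the log2 scale; adjusted p from 0.00141 to 0.0136).

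Gbp2b, the mouse gene also known as Gbp1, was called at both doses at 48 h. Its brighter probe gave log2 1.50 and 1.88 at the low dose and 2.86 and 1.04 at the high dose at 3.5 h. At 48 h the values were 5.37 and 4.47 at the low dose and 5.36 and 5.17 at the high dose. The early and late arrays did not overlap. The 48 h means were 30.3-fold at the low dose (adjusted p = 0.0136) and 38.5-fold at the high dose (adjusted p = 0.00228). From scanner signals with loess the low-dose value was log2 3.55 (adjusted p = 0.0243), against 4.92 from the table. At 3.5 h the high-dose mean of 1.95 ± 0.42 was called (adjusted p = 0.0172) and the low-dose mean of 1.69 was not (adjusted p = 0.0652). With the other probe this was the other way round, 1.09 at the high dose (adjusted p = 0.0608) and 2.12 at the low dose (adjusted p = 0.0197), and both 48 h means were called, at 4.60 and 4.67 (adjusted p = 0.0105 and 0.00244).

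Gbp2, a lipid-anchored member recruited early to parasite vacuoles, measured log2 1.78 and 1.79 at the low dose and 2.17 and 1.11 at the high dose at 3.5 h. At 48 h it measured 3.23 and 2.96 at the low dose and 4.15 and 3.63 at the high dose. The late arrays again stood above the early ones, with the high dose on top. Gbp2 rose in all 4 groups, by 3.45-fold and 3.12-fold at 3.5 h and by 8.55-fold and 14.9-fold at 48 h (SE 0.29 on the log2 scale; adjusted p from 0.00228 to 0.0184).

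On chromosome 5, Gbp8 was the member whose early values lay on both sides of 0. Its 3.5 h values were log2 0.81 and -1.15 at the low dose and 1.13 and -1.85 at the high dose, so replicate 1 was above 0 and replicate 2 below 0 at both doses. At 48 h it measured 5.75 and 4.25 at the low dose and 5.56 and 4.86 at the high dose, on every array above all early values. The early means of -0.17 and -0.36 were not called (adjusted p = 0.926 and 0.761). The late mean of 5.21 ± 0.74 at the high dose was called (adjusted p = 0.00959), and that of 5.00 at the low dose was not (adjusted p = 0.0665; 0.00856 with the replicate number as a block). The control signal of Gbp8 was not well above background on the replicate 1 array of each 48 h group, 1 of 2 arrays in both. From scanner signals with loess the 48 h means were 2.07 and 3.18, against 5.00 and 5.21 from the table, so the size of its late response is not settled here. Replicate 1 was above replicate 2 in all 4 groups.

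Gbp9 gave the smallest late means of the 9 genes in the table. With loess on the scanner signals Gbp5 was the lower at the low dose (1.22 against 1.59). Gbp9 measured log2 0.84 and 0.26 at the low dose and 1.80 and 0.16 at the high dose at 3.5 h. Neither mean was called (adjusted p = 0.442 and 0.0972). At 48 h the values were 2.05 and 2.13 at the low dose and 2.54 and 2.63 at the high dose, close between replicates. The high-dose mean was called (2.58 ± 0.37, adjusted p = 0.00985), and the low-dose mean of 2.09 was not (adjusted p = 0.098).

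Of the 9 genes Gbp4 had the widest spread between replicates at the low dose at 3.5 h. It measured log2 2.59 and 0.50 there and 2.75 and 1.22 at the high dose. At 48 h the values were 4.99 and 3.79 at the low dose and 6.08 and 4.54 at the high dose. Each replicate was higher at 48 h than any early array. Its late high-dose mean was 39.7-fold (5.31 ± 0.62, adjusted p = 0.00547), the largest of the 9 in the table. From scanner signals with loess it was log2 4.23, below Gbp6 (5.15), Gbp2b (4.72) and Gbp3 (4.65). The other means, 1.54, 1.98 and 4.39 (low and high dose at 3.5 h, low dose at 48 h), were not called (adjusted p = 0.196, 0.0564 and 0.0589). Replicate 1 was above replicate 2 in all 4 groups, and with the replicate number as a block all 3 were called (adjusted p = 0.0163, 0.00294 and 0.00512).

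Gbp6 showed the widest gap between doses at 48 h. By its brighter probe it measured log2 1.50 and 0.58 at the low dose and 3.04 and 0.11 at the high dose at 3.5 h. At 48 h it measured 3.07 and 3.01 at the low dose and 5.37 and 5.13 at the high dose. The early high-dose replicates lay on either side of both low-dose arrays. Gbp6 rose 37.9-fold at the high dose at 48 h (5.25 ± 0.59, adjusted p = 0.0052) and its other means were not called (adjusted p from 0.0951 to 0.355). Its other probe gave a smaller late high-dose value, 4.18 (adjusted p = 0.00536), and was called at the high dose at 3.5 h, at 2.17 (adjusted p = 0.0178).

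Gbp10, a family gene outside the 9 that lies beside Gbp6, also rose at the high dose, by log2 2.77 at 3.5 h (adjusted p = 0.00509) and 3.57 at 48 h (adjusted p = 0.0058). Its low-dose values of 1.61 and 3.04 were not called (adjusted p = 0.0733 and 0.0575). Gbp6 and Gbp10 are close relatives and probe sequences were not used here, so cross-hybridisation between them was not tested.

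In the table the order of the clusters turned between the times. The median of the chromosome 3 members was the higher at 3.5 h, at log2 1.88 against 0.79 (low dose) and 2.10 against 1.28 (high dose). At 48 h the chromosome 5 median was the higher, at 3.72 against 3.10 and 5.23 against 4.05. At the low dose at 3.5 h the chromosome 3 members lay between log2 1.69 and 3.39 and the chromosome 5 members between -0.17 and 1.54, with no overlap of means. At the high dose the ranges were 1.64 to 3.45 and -0.36 to 1.98, which overlap. At 48 h the ranges also overlapped, at 2.43 to 4.92 against 2.09 to 5.00 at the low dose and at 3.64 to 5.27 against 2.58 to 5.31 at the high dose. Of the 5 members on chromosome 3, 3 were called at the low dose and 5 at the high dose at 3.5 h, and 4 and 5 at 48 h. Of the 4 on chromosome 5, none was called in the first 3 groups and 4 in the last. Group by group, 2.75%, 10.2%, 0.153% and 4.31% of all genes were called higher. Against such shares, 0 of 4 in the first 3 groups does not set these members apart from all genes. In those 3 groups 1, 3 and 4 of these members were higher at an unadjusted p under 0.05 in limma's test. So were 11.4%, 17.4% and 5.27% of all genes. With the replicate number as a block Gbp4 was called in all of these groups and Gbp8 at the low dose at 48 h. With loess on the scanner signals the order did not turn, and the chromosome 3 median was the higher at 48 h too. At the low dose it was 2.73, above all 4 chromosome 5 members (1.59, 2.07, 2.59 and 2.72). At the high dose it was 3.87, and the chromosome 5 members, at 2.48, 3.18, 4.23 and 5.15, had a lower median. The clusters were compared after earlier results were known, and the difference between them was not tested.

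The time difference asked whether the early and late responses differed. At the high dose 5 of 9 members had a higher ratio to control at 48 h than at 3.5 h, where 4.52% of all genes did. These were Gbp8 (difference in log2 5.57 ± 1.04 SE, adjusted p = 0.0251), Gbp6 (3.67 ± 0.84, adjusted p = 0.0406), Gbp2b (3.32 ± 0.60, adjusted p = 0.0237), Gbp3 (2.59 ± 0.38, adjusted p = 0.0167) and Gbp2 (2.25 ± 0.41, adjusted p = 0.0243). Gbp4 differed by 3.33 ± 0.87 (adjusted p = 0.057; 0.0104 with the replicate number as a block), Gbp9 by 1.60, Gbp7 by 1.40 and Gbp5 by 0.59 (adjusted p = 0.0977, 0.199 and 0.349). For all 9 genes both late arrays lay above both early ones at this dose, as they did for 26.7% of all genes. From scanner signals with loess the difference for Gbp8 was 3.37 (adjusted p = 0.0252) and that for Gbp2b 2.70 (adjusted p = 0.0154). The calls rest on 4 arrays: without any 1 of them (high dose, replicate 1 or 2 at 3.5 h or at 48 h) 0 members were called. The other probe of Gbp6 gave 2.01 (adjusted p = 0.102) and the other probe of Gbp2b 3.58 (adjusted p = 0.0148).

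At the low dose 0 of 9 members passed limma's test for the time difference, as against 0.0994% of all genes in either direction. At an unadjusted p under 0.05, 8 of 9 passed, 7 of them higher at 48 h, where 10.4% of all genes passed. Gbp8 (5.17 ± 1.04, adjusted p = 0.136), Gbp2b (3.23 ± 0.60, adjusted p = 0.115) and Gbp4 (2.85 ± 0.87, adjusted p = 0.306) had the largest differences in the table, which with loess on the scanner signals were 2.12, 1.85 and 1.32. Gbp5 had the opposite sign, at -0.92 ± 0.38 (adjusted p = 0.456), and with loess on the scanner signals it was called lower at 48 h (-2.28, adjusted p = 0.0211). With the replicate number as a block Gbp8 was called (adjusted p = 0.0418).

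**Figure D2:**
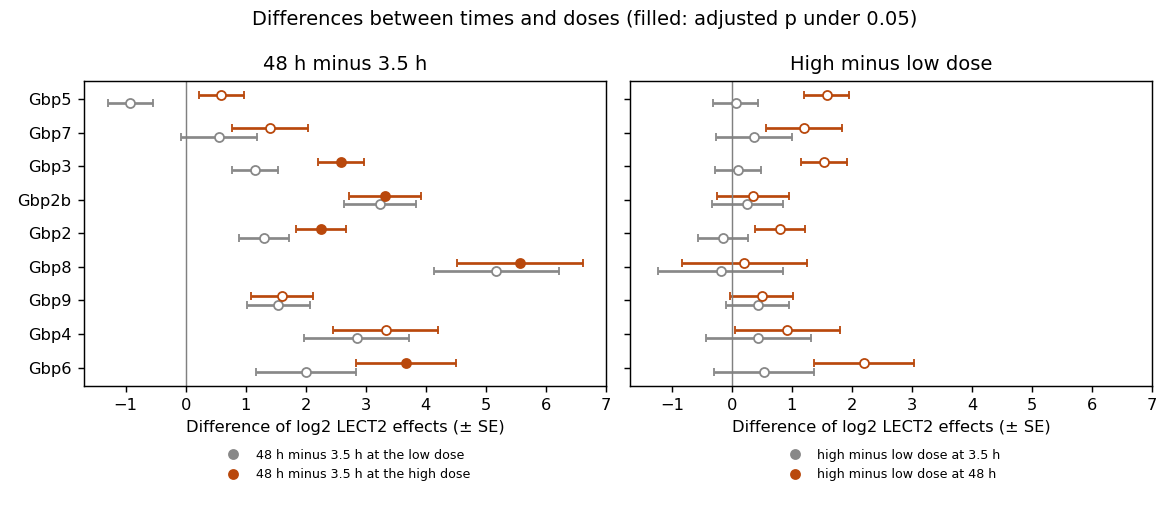
Differences of the log2 LECT2 effect between times (left) and between doses (right) for the 9 genes, with 1 SE on each side (n = 2 arrays in each group). Filled points have an adjusted p under 0.05. The 5 filled points are Gbp2, Gbp2b, Gbp3, Gbp6 and Gbp8 at the high dose, and no dose difference is filled.

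The difference between doses was called for no member at 3.5 h (0 of 9 by limma; 0% of all genes; 0 of 9 at an unadjusted p under 0.05, against 7.83% of all genes). The differences there, high minus low, ran from -0.19 to 0.53, and the 95% interval was -0.79 to 1.00 for Gbp3 and -2.61 to 2.24 for Gbp8. At 48 h again 0 of 9 members and 0% of all genes passed, but all 9 differences in the table were above 0, as were 47.3% over all genes. Gbp6 (2.20 ± 0.84, adjusted p = 0.429), Gbp5 (1.58 ± 0.38, adjusted p = 0.294) and Gbp3 (1.54 ± 0.38, adjusted p = 0.304) had unadjusted p under 0.05, where 3.89% of all genes were higher at that threshold. Gbp2b and Gbp8 differed by 0.35 (95% interval -1.04 to 1.73) and 0.21 (-2.22 to 2.63). With the scanner files as recorded under each sample the 48 h differences were below 0 for all 9 genes, from -2.71 (Gbp6) to -1.12 (Gbp9). The interaction of dose and time passed for 0 of 9 members and 0% of all genes, with all 9 values above 0 (0.06 to 1.67; 47.6% of all genes above 0) and unadjusted p under 0.05 for Gbp3 and Gbp5 (5.4% of all genes higher). A miss here does not show equal responses, since the SE of a difference had a median of 0.60 over the members.

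A ratio can rise because the LECT2 sample rises or because the control falls, so the channels were also read one at a time from the scanner files that the value columns follow. Channel signals are quantile-scaled over arrays and within each channel, so the gap between channels is not the ratio of the table. The channels were not compared with the files as recorded under each sample. By the files used, slide and time cannot be told apart in either channel. In untreated cells 6 of 9 members were lower at 48 h than at 3.5 h, where 3.59% of all genes were. Gbp2b went from log2 signals of 11.18 and 11.16 in the 3.5 h controls (replicates 1 and 2) to 8.40 and 8.64 in the 48 h controls. Gbp8 went from 9.02 and 9.70 to 6.91 and 7.32. In both genes the late controls stood well below the early ones, with a difference of -2.65 ± 0.19 for Gbp2b (adjusted p = 0.0227) and of -2.24 ± 0.29 for Gbp8 (adjusted p = 0.0236). Gbp4 (fell by 1.69), Gbp2 (fell by 1.67), Gbp7 (fell by 1.42) and Gbp5 (fell by 1.07) were also called (adjusted p from 0.0284 to 0.0449). Gbp6, Gbp3 and Gbp9 gave -1.13, -0.71 and -0.56 (adjusted p = 0.0997, 0.0811 and 0.206). Each time had 2 averaged control values, and without either 48 h control 0 members were called.

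Markers of several other cell types also moved in the untreated channel, where 3.59% of all genes were lower at 48 h and 3.91% higher. Of the T and NK cell markers 3 of 13 were lower at 48 h (median of the list -0.66), of the B cell markers 3 of 7 (median -0.68) and of the mast cell markers 2 of 5 (median -1.72). Of the neutrophil markers 1 of 7 was lower (median 0.28) and of the dendritic cell markers 0 of 5 (median -0.43). The mesothelial and fibroblast list went the other way, with 1 of 9 higher and 0 lower (median 0.45). The summed control signal of the B cell list was 5233 to 13242 at 3.5 h and 1975 to 3524 at 48 h, and that of the mast cell list 5094 to 23899 and 1355 to 2577. That of the mesothelial and fibroblast list was 19413 to 80589 and 53380 to 151142. Of the mast cell genes Ms4a2 was not above background on any array. Summed signals of the macrophage list in the control channel were 297052 to 364290 at 3.5 h and 314665 to 514097 at 48 h. The part of other cells in the Gbp signals was not tested, and in bulk RNA fewer cells of a type and less RNA per cell cannot be told apart.

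In the LECT2 channel, a comparison added after the data were seen, the 9 genes split. At the high dose Gbp6 (2.09 ± 0.44, adjusted p = 0.00964), Gbp3 (1.49 ± 0.25, adjusted p = 0.00415) and Gbp9 (0.98 ± 0.22, adjusted p = 0.0126) were higher at 48 h than at 3.5 h, 3 of 9 against 16.4% of all genes. At the low dose Gbp8 (1.50 ± 0.38, adjusted p = 0.0297) and Gbp9 (0.86 ± 0.22, adjusted p = 0.0311) were higher and Gbp5 was lower (-1.95 ± 0.40, adjusted p = 0.0145), where 10.6% of all genes were higher and 10.5% lower. Gbp2b, for which the ratio grew by 3.32 at the high dose, differed by 0.02 in the LECT2 channel (adjusted p = 0.974), and Gbp2 by -0.26 (adjusted p = 0.633). Gbp7 had negative values at both doses, -0.98 and -0.40, neither called (adjusted p = 0.151 and 0.516). Gbp9 lost both calls with median centring in place of quantile scaling. Centring also called Gbp7 lower at the low dose (-1.96, adjusted p = 0.00243) and Gbp5 lower at the high dose (-1.26, adjusted p = 0.0228). With the replicate number as a block these 2 falls were called too (adjusted p = 0.0357 and 0.0397). Gbp3 at the low dose, not called either way, went from 0.63 to -0.37 with median centring. Leaving out 1 array left 1 call at the high dose (without replicate 1 or replicate 2 at 48 h), and at the low dose 1 call without low-dose replicate 1 at 48 h or replicate 2 at 3.5 h and none without replicate 2 at 48 h.

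**Figure D3:**
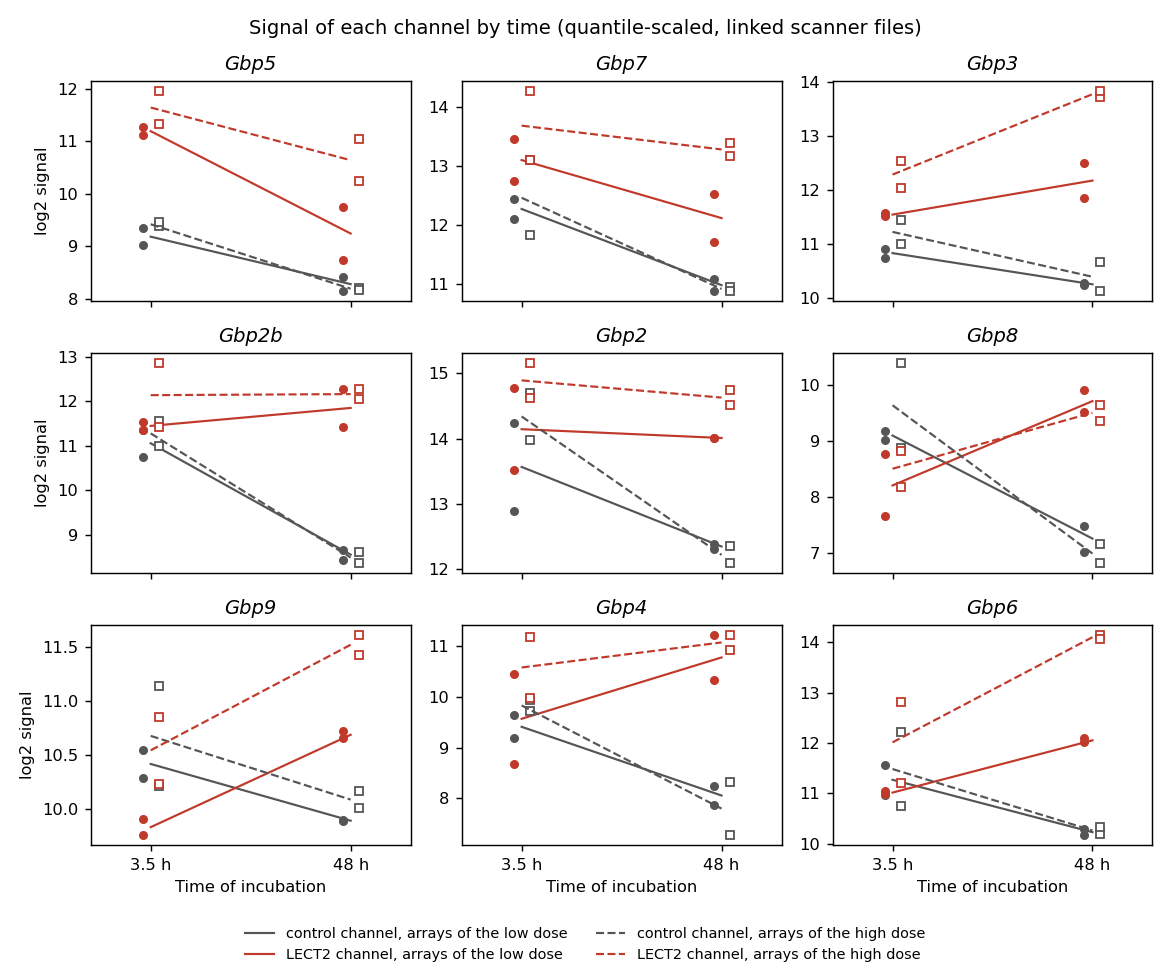
Log2 signal of the control channel (grey) and the LECT2 channel (red) at 3.5 h and 48 h for each gene, with 1 point per array. Filled circles and solid lines are arrays of the low dose, open squares and dashed lines those of the high dose, and lines join group means. The vertical scale differs between panels. The grey lines fall in all 9 panels. The red lines rise for Gbp3, Gbp4, Gbp6, Gbp8 and Gbp9, stay near level for Gbp2 and Gbp2b, and fall for Gbp5 and Gbp7.

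Over the 8 arrays the response of each member was set against the mean of the other 8. Pearson's r was 0.219 for Gbp5, 0.861 for Gbp7 and 0.928 to 0.979 for the other 7 genes, which share arrays, control RNA and the split by time. Among 16745 other genes with a symbol, those closest to the mean of the 9 members were Stat5b (r = 0.986), Nemp1 (0.981), Ttc21b (0.979), Bccip, Bbs12, Fam217b, Galnt2, Rmnd5a, Trrap and F830016B08Rik (0.963). Only F830016B08Rik had means above 0 in every group (0.37, 0.99, 3.41 and 3.91). The other 9 had means below 0 at both doses at 3.5 h, Stat5b for example -0.72 and -0.69, and -0.24 and -0.06 at 48 h.

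Ifng, the gene of the main inducer of the family, rose at the high dose. It measured log2 3.60 and 2.91 there at 3.5 h and 6.83 and 5.24 at 48 h, a rise of 3.25 ± 0.73 (adjusted p = 0.0192) and of 6.03 ± 0.73 (adjusted p = 0.00601). Its low-dose arrays gave 3.65 and 0.32 at 3.5 h and 3.82 and 2.86 at 48 h, above 0 but not called (adjusted p = 0.165 and 0.156). T and NK cells are known makers of interferon gamma. Of their 13 markers 1 was higher at the low dose and 3 at the high dose at 3.5 h. At 48 h 0 were higher at the low dose and 2 at the high dose (1 lower). Of all genes 2.75%, 10.2%, 0.153% and 4.31% were higher in that order, and 6.91% were lower in the last group. At 3.5 h the summed signal of the T and NK cell markers was 10388 to 20080 with LECT2 and 7002 to 11944 in controls. At 48 h it was 8787 to 12264 and 5455 to 9082 in the same order. The sum leans on Cd4, with a median control signal of 4120, ahead of Nkg7 at 1121 and Cd3e at 592. LECT2 and control sums come from different dyes. The macrophage list at 3.5 h summed to 347163 to 631052 with LECT2 and 297052 to 364290 in controls. Its 48 h sums were 301589 to 496689 and 314665 to 514097 in the same order. The part of T and NK cells in the Ifng or Gbp values was not tested. Ifnb1, a type I interferon, rose at the high dose at 3.5 h (1.96 ± 0.42, adjusted p = 0.016) and stood at -0.63 at 48 h (adjusted p = 0.357), a time difference of -2.59 ± 0.59 (adjusted p = 0.0405).

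Of the 16 genes of interferon sensing 3 rose at the low dose and 8 at the high dose at 3.5 h. At 48 h 0 and 9 rose, with 1 lower in the last group. Over all genes 2.75% and 10.2% rose at 3.5 h and 0.153% and 4.31% at 48 h, with 6.91% lower in the last group. Irf1 rose at 3.5 h at both doses, by 1.58 and 1.76 (adjusted p = 0.0154 and 0.00368), and by 2.22 at the high dose at 48 h (adjusted p = 0.00484). The negative regulator Socs1 rose by 2.63 and 3.32 at 3.5 h (adjusted p = 0.00546 and 0.000889), and the kinase gene Jak2 by 2.16 and 2.52 (adjusted p = 0.00869 and 0.00167). Irf7, a driver of type I interferon, rose by 3.53 ± 0.53 at the high dose at 48 h (adjusted p = 0.0109). No gene of the list was called for a rise between times, as against 0.0153% of all genes at the low dose and 4.52% at the high dose. In untreated cells 4 were lower at 48 h, among them Irf7 (-2.45), Socs1 (-1.50) and Ifng (-1.49), and 1, Ifngr1, was higher (1.17). Over all genes 3.59% were lower there and 3.91% higher.

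The immunity-related GTPases, which work on the same vacuoles, were also higher with LECT2. Of 8 tested, 4 and 6 rose at 3.5 h (low and high dose) and 3 and 8 at 48 h, with medians of 1.53, 2.29, 2.26 and 2.91. The shares of all genes that rose were 2.75%, 10.2%, 0.153% and 4.31% in that order. Tgtp1 rose in every group, by 2.59, 4.28, 3.78 and 3.67, as did Tgtp2, by 2.11, 2.93, 3.64 and 4.45, and Irgm2, by 1.59, 2.37, 2.37 and 2.72. Irgm1, a regulator of the others, rose at the high dose by 1.83 at 3.5 h (adjusted p = 0.0108) and 3.01 at 48 h (adjusted p = 0.00545). For none of the 8 was the time difference called at either dose. Over all genes 0.0994% were called for it at the low dose and 8.3% at the high dose, in either direction.

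Among the 9 caspase-11 and inflammasome partners 3 and 4 rose at 3.5 h (2 fell at the high dose) and 0 and 4 at 48 h. Over all genes 2.75% and 10.2% rose at 3.5 h (11.7% fell at the high dose) and 0.153% and 4.31% at 48 h. Casp4, the gene of caspase-11, rose at 3.5 h at both doses, by 1.50 and 1.46 (adjusted p = 0.0264 and 0.0101), and by 1.19 at the high dose at 48 h (adjusted p = 0.0345). Nlrp3 rose early, by 3.02 and 3.98, and its response was lower at 48 h at the high dose (difference -2.70 ± 0.48, adjusted p = 0.0234), the reverse in sign of all 9 Gbp genes. Aim2, a DNA sensor, fell by 1.24 at the high dose at 3.5 h (adjusted p = 0.0334) and was near 0 in the other groups. Il1b rose by 3.02 and 3.38 at 3.5 h and by 4.70 at the high dose at 48 h.

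Atg8 conjugation guides Gbp proteins to vacuoles, and dynamin-like GTPases are related to them. Of 10 Atg8 genes 1 and 2 fell at 3.5 h (low and high dose) and 0 and 1 at 48 h. In that order 2.15%, 11.7%, 0.0191% and 6.91% of all genes fell. No Atg8 gene rose in the first 3 groups and 1 did in the last, Atg5 by 1.27 (adjusted p = 0.0159), where 4.31% of all genes rose. Map1lc3b had fallen by 1.46 and 1.41 at 3.5 h (adjusted p = 0.0157 and 0.00606). Of 8 dynamin-like genes 1 was called over the 4 groups, Atl1 at the high dose at 3.5 h (-1.69, adjusted p = 0.0352), a group in which 11.7% of all genes fell.

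**Figure D4:**
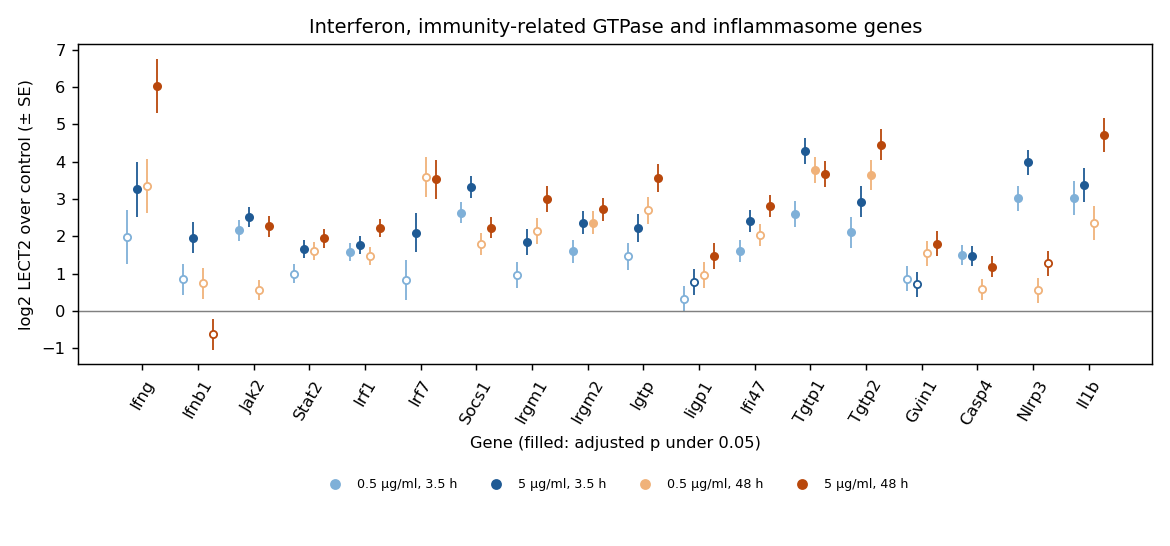
Log2 ratio of LECT2 over control with 1 SE on each side (n = 2 arrays) for genes of interferon sensing, the immunity-related GTPases and inflammasome partners, in the 4 groups. Filled points have an adjusted p under 0.05. Ifng is highest at the high dose at 48 h (6.03), and Nlrp3 is higher at 3.5 h (3.02 and 3.98) than at 48 h.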

How the data were processed

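RNA of 8 macrophage cultures treated with LECT2 and of their controls was measured on 2-colour Agilent arrays read with Agilent Feature Extraction 10.7.3.1, per the submitters' processing notes. The authors deposited scanner files with the median and processed intensity of each channel and a log10 ratio per spot, and a table of log2 values for 39428 probes. How the table was made is not given in the sources used here: its 48 h columns match the Cy5 to Cy3 ratio of a scanner file within 0.01 for 86.4% to 88.4% of probes, and its 3.5 h columns do not equal any file. Column medians, with the sign turned to LECT2 over control, were -0.08 to 0.22. Each column was set against every scanner file. The low-dose 3.5 h replicate 1 column followed its own file at r = 0.781 over probes well above background, and the other 7 followed a file of another sample at r of at least 0.974. Those files are called linked.

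The 9 genes, the other gene lists and the tests were chosen with earlier results of these data known. Named genes were every member, Gbp10, up to 3 called genes of each list per comparison, 7 fixed genes (Ifng, Ifnb1, Irf1, Irgm1, Casp4, Aim2 and 1 that is not reported here) and the 10 genes nearest to the mean of the members; not all are given here.

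A probe was kept when 1 of its channels was well above background on 2 or more of the 8 arrays (31615 probes), and the brightest probe stood for a gene, named through RefSeq (26412 of 39429 probes). The 4 group means and their differences were fitted with limma 3.58.1 (R 4.3.3) on all 8 arrays, with 4 residual degrees of freedom. P-values were adjusted over 26148 genes after Benjamini and Hochberg. The channels were compared between times after normexp (offset 50) and quantile scaling, with control arrays of a time and replicate averaged. The control comparison had 2 residual degrees of freedom. With an array left out, a group of 1 array is assumed to vary like the others. The fit was tested on simulated data. Of 50 genes changed by log2 1 it recovered 1 and 5 at 3.5 h (low and high dose) and 1 and 1 at 48 h. Of 50 changed by log2 2 it recovered 20, 29, 32 and 31 in the same order. False calls numbered 8, 7, 5 and 8 among 26148 genes. Deviations of same-numbered replicates correlated between groups at r = 0.04, 0.17, 0.20, 0.00, -0.06 and 0.47. The highest, 0.47, was between the 2 doses at 48 h. The main fit did not take the numbers to pair the arrays, and the replicate block did. Averaging the controls took a number to mark the same experiment within a time. Whether a number marks the same experiment in every group is not given in the sources used here. The low number of arrays limits the precision.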

Additional observations from a re-analysis of the deposited data

Results flagged for a closer look

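At the high dose the LECT2 effect differed between 3.5 h and 48 h, by limma's test of the difference itself, for 5 of the 9 genes. All 5 were higher at 48 h, as were 4.52% of all genes by the same test. The difference in log2, 48 h minus 3.5 h, was 2.25 ± 0.41 for Gbp2 (adjusted p = 0.0243), 3.32 ± 0.60 for Gbp2b (adjusted p = 0.0237), 2.59 ± 0.38 for Gbp3 (adjusted p = 0.0167), 3.67 ± 0.84 for Gbp6 (adjusted p = 0.0406) and 5.57 ± 1.04 for Gbp8 (adjusted p = 0.0251). Both late arrays of each of these genes lay above both early arrays, as they did for 26.7% of all genes. As the 5 genes were picked by this difference, the order of their arrays is no separate evidence. By the linked files slide and time cannot be told apart. In the untreated channel Gbp2, Gbp2b and Gbp8 were lower at 48 h (log2 differences of -1.67, -2.65 and -2.24).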

How the results depend on the processing

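With files as recorded under each sample, members called fell to 0 of 9 at the low dose and 0 at the high dose at 3.5 h, to 1 at the low dose and 0 at the high dose at 48 h, and to 0 for the time difference at the high dose. That difference then had the opposite sign for Gbp2 (-0.69), Gbp2b (-0.81), Gbp3 (-1.03), Gbp6 (-1.36) and Gbp8 (-0.55), each with an adjusted p of 1.00 after rounding; in that reading a slide holds 1 replicate from each group. With those files the high minus low difference at 48 h was also below 0 for all 9 genes (-2.71 to -1.12), against above 0 in the table. The cause of the conflict between columns and files was not tested.

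At the low dose at 3.5 h 5 members were called in place of 3 with linked files and loess, with median centring, with the processed signals and with the stricter filter (both channels on at least 4 arrays), 6 with the replicate block and 1 with a trended robust variance. The trended variance also left 0 of 4 calls at the low dose at 48 h and 3 of 5 for the time difference at the high dose. The time difference at the low dose had 1 call in place of 0 with loess (Gbp5), with median centring (Gbp5) and with the replicate block (Gbp8). Leaving out 1 array gave 1 to 2 calls at the low dose and 1 to 7 at the high dose at 3.5 h, 0 to 0 at the low dose and 1 to 3 at the high dose at 48 h, and 0 to 0 for both time differences. It gave 0 to 6 for the control channel, 0 to 3 for the LECT2 channel at the low dose and 1 to 3 at the high dose. The channels were compared with linked files only.

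Median centring moved the median of all genes by up to 0.26 below 0. Counting each called member once under each setting that uses all 8 arrays, other than files as recorded, the call was kept in 25 of 27 cases at the low dose and 45 of 45 at the high dose at 3.5 h, in 29 of 36 and 81 of 81 at 48 h, and in 42 of 45 for the time difference at the high dose. The replicate block ended no call of a member; other genes were not compared under it. Sign turns of values not called on either side were most frequent for the interaction (23). The cause of each change was not tested.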
